A study of Mus musculus with 4 samples.

Results

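The inflammatory monocyte markers examined here are 8 genes, Ly6c2, Fn1, Vcan, Plac8, F13a1, Chil3, Lyz1 and Lyz2, chosen by name from the 28443 genes of the deposited count table. All 8 had enough counts to be tested. They were measured by RNA-seq in mouse bone marrow-derived macrophages (BMDMs), which are grown from marrow cells, 24 h after RANKL (50 ng/ml), the cytokine that starts osteoclast differentiation. The comparison asks whether cells without MYC, a transcription factor of cell growth, keep more or less of a monocyte's transcripts at this early time.

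Both groups came from mice 8 weeks old and both carried LysM-Cre, a Cre recombinase inserted into the lysozyme M gene Lyz2 and active in monocytes, macrophages and neutrophils. The MYC-WT group (strain label LysM cre, genotype WT) and the MYC-deficient group (strain label MYC f/fLysM cre, genotype MYC cKO) had 2 libraries each, all treated with RANKL. The MYC-deficient cells also carried floxed Myc alleles, so that deletion is limited to cells that have switched on Lyz2. Neither the number of Cre alleles nor the number of mice behind a library is stated by the sources used here, and the replicates are called biological by the study. Libraries are named by genotype and replicate number, and the numbers alone do not tie a MYC-WT library to a MYC-deficient one.

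Inflammatory, or classical, monocytes are short-lived blood cells that leave the marrow, carry Ly6C on their surface and enter inflamed tissue, where they can become macrophages or, under M-CSF and RANKL, osteoclasts. As they mature into macrophages they lose Ly6C and much of the secreted and granule program that they share with neutrophils and marrow progenitors. The 8 genes have several roles. They encode a surface protein (Ly6c2), matrix and clotting proteins (Fn1, Vcan, F13a1) and an intracellular protein of monocytes and other blood cells (Plac8). Chil3, Lyz1 and Lyz2 encode secreted proteins. Not all are limited to monocytes, since macrophages ordinarily express Lyz2, and alternatively activated macrophages express Chil3.

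Depth was similar between libraries, with 27544806 to 35794698 counts in total, scaling factors of 0.982 to 1.02 and a common biological coefficient of variation of 0.167. Myc checked the labels: it stood at 230 and 250 CPM in MYC-WT and at 17.7 and 24.2 CPM in MYC-deficient libraries, a log2 fold change of -3.49 (SE 0.20, adjusted p = 0.00711). CPM give a gene's counts per 1000000 counts of its library, and fold changes and adjusted p-values are from edgeR's quasi-likelihood test over 13436 genes. To pass, a gene needed an adjusted p below 0.05 and a change of more than 1.5-fold. Every fold change compares MYC-deficient with MYC-WT cells.

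Of the 8 markers, 1 was higher in MYC-deficient cells, 0 were lower and 7 did not pass. In the same test 6.06% of the 13436 genes were higher and 9.91% were lower. The marker that passed was Fn1. The test gave 3 markers above MYC-WT and 0 below it at an unadjusted p under 0.05. The share of all genes at that threshold was not counted, here or for the lists below. Counts at an unadjusted p are therefore not read as an excess. DESeq2, edgeR's likelihood ratio test and limma-trend called 2, 3 and 1 markers higher and 0 lower. Over all genes they called 1110 of 24030, 1113 of 13436 and 864 of 11109 higher, and 1322, 1584 and 1156 lower. The DESeq2 total holds every gene with any count, so its share is not comparable with the other shares, which are of filtered genes. The log2 fold change was positive for 6 markers, with a median of 1.51 over all 8 against -0.01 over all genes tested. In 4 markers both MYC-deficient libraries lay above both MYC-WT libraries, an arrangement found in 27.5% of all genes tested.

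**Figure D1:**
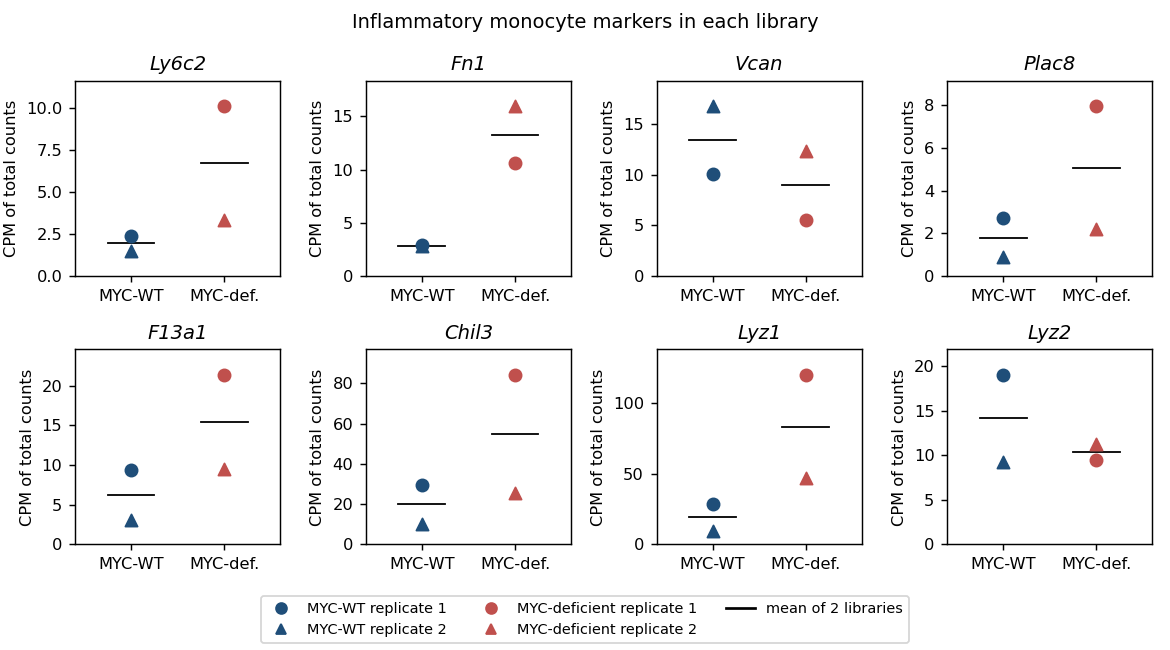
Level of each of the 8 markers in CPM of total counts (y axis, from 0, a scale of its own per gene) in the 2 MYC-WT and the 2 MYC-deficient libraries (x axis), with circles for replicate 1, triangles for replicate 2 and a line at the mean of 2 libraries. Fn1 is apart by genotype with close replicates, whereas in Ly6c2, Plac8, F13a1, Chil3 and Lyz1 replicate 1 lies above replicate 2 within both genotypes.

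Among the matrix and clotting proteins, Fn1 (fibronectin, chr1:71585520-71653200, mm10) rose 4.74-fold in the fit. Its level was 2.89 and 2.81 CPM in MYC-WT and 10.6 and 15.9 CPM in MYC-deficient libraries, from 96, 82, 379 and 439 counts. The means were 2.85 ± 0.0531 (SD, n = 2) and 13.3 ± 3.78 (SD, n = 2), and every MYC-deficient library exceeded every MYC-WT library by 3.67 to 5.66 times. The log2 fold change was 2.24 (SE 0.27, adjusted p = 0.0108). Fn1 was the one marker for which the replicate spread was small beside the difference. It kept its call without MYC-WT replicate 1 (adjusted p = 0.0395), MYC-deficient replicate 1 (0.00134) or MYC-deficient replicate 2 (0.00436), and lost it without MYC-WT replicate 2 (adjusted p = 0.0598, log2 fold change 2.25). In that last setting only 65 of all genes were called higher, against 814 with the 4 libraries.

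Vcan (versican, a large proteoglycan of the extracellular matrix, chr13:89655312-89742509) went the other way without passing. It stood at 10.1 and 16.7 CPM in MYC-WT and at 5.53 and 12.3 CPM in MYC-deficient libraries, so the groups overlapped. Its log2 fold change was -0.56 (SE 0.45, adjusted p = 0.419). Replicate 2 was above replicate 1 in both genotypes, the reverse of the order in 5 other markers. Without MYC-deficient replicate 2, the fitted change was -1.27 (SE 0.34) and Vcan passed as lower (adjusted p = 0.0402), whereas without MYC-deficient replicate 1 it was -0.05 (adjusted p = 0.929). An antisense gene that overlaps the 5′ part of Vcan, Gm4117, had 44, 44, 32 and 40 counts, and the sources used here do not give the strand setting of the count.

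F13a1 encodes the A subunit of coagulation factor XIII, a transglutaminase that crosslinks fibrin and fibronectin (chr13:36867178-37050244). Its level was 9.42 and 3.09 CPM in MYC-WT and 21.4 and 9.55 CPM in MYC-deficient libraries. The groups did not overlap, but the lowest MYC-deficient library was only 1.01 times the highest MYC-WT library. Its fitted change was 1.33 on the log2 scale (SE 0.60) and did not pass (adjusted p = 0.178). Replicate 1 was 3.05 times replicate 2 in MYC-WT and 2.24 times in MYC-deficient cells, the same direction in both.

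The surface marker Ly6c2 (chr15:75108158-75111970, minus strand) is the gene that gives Ly6C-high monocytes their name. It lies 13.1 Mb from Myc on the same chromosome. Its level was 2.41 and 1.48 CPM in MYC-WT and 10.1 and 3.30 CPM in MYC-deficient libraries, from 80, 43, 361 and 91 counts. Both MYC-deficient libraries were above both MYC-WT libraries, and MYC-deficient replicate 1 was 3.05 times replicate 2. The log2 fold change of 1.81 (SE 0.58) did not pass (adjusted p = 0.0845), although DESeq2 called it (adjusted p = 0.00421), as did edgeR's likelihood ratio test (0.0157). Without MYC-deficient replicate 1 the log2 fold change was 0.83 (SE 0.41, adjusted p = 0.204), and without MYC-deficient replicate 2 it was 2.38 and passed (adjusted p = 0.00399). Over the 13 alternative settings the adjusted p ran from 9.62e-09 to 0.280.

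Ly6c2 has a neighbouring copy, Ly6c1, best known from endothelial and lymphoid cells. Of the 50-base windows of the longest Ly6c2 coding transcript, 33.0% occur in another transcript, nearly all of them in Ly6c1. Reads of 50 bases or fewer from those stretches cannot be assigned by sequence. Of the 100-base windows 15.8% are shared. Ly6c1 itself had 1, 0, 2 and 0 counts, so the table puts almost all assigned Ly6C reads on Ly6c2.

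Plac8 (placenta-specific 8, an intracellular protein of monocytes, granulocytes and lymphocytes, chr5:100553725-100572245) had 2.71 and 0.892 CPM in MYC-WT and 7.93 and 2.18 CPM in MYC-deficient libraries. MYC-deficient replicate 2 was below MYC-WT replicate 1, so the groups overlapped. The log2 fold change was 1.52 (SE 0.76, adjusted p = 0.214). Replicate 1 was 3.04 times replicate 2 in MYC-WT and 3.64 times in MYC-deficient cells, beside a fitted difference between genotypes of 2.86-fold. This replicate gap ran the same way in both genotypes, and a fit by genotype alone counts it as spread.

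Chil3 encodes Ym1, a chitinase-like protein without enzyme activity that is secreted by monocytes, neutrophils and alternatively activated macrophages (chr3:106147554-106167564). Its level was 29.4 and 10.3 CPM in MYC-WT and 84.1 and 25.5 CPM in MYC-deficient libraries. Again the groups overlapped, and replicate 1 was 2.84 and 3.30 times replicate 2. This gave a log2 fold change of 1.49 (SE 0.69, adjusted p = 0.187). Of its 50-base windows 29.4%, and of its 100-base windows 5.42%, occur in another transcript, most often Chil4. Chil4 had 0 counts in all 4 libraries.

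The lysozymes are secreted enzymes that cut bacterial cell walls. In mice they are encoded by adjacent copies on chromosome 10: Lyz1 (chr10:117287797-117292868), best known from Paneth cells of the gut, and Lyz2 (chr10:117277331-117282321), the macrophage lysozyme. Their coding sequences are both 444 bases long and differ at 22 bases. The stretch with most of these differences, coding bases 7 to 156 counted from 1 at the A of the start codon, is shown. Reads from other parts of the transcripts can tell the copies apart too. Capitals mark the 15 bases that differ, and the sequences are from GENCODE M21 transcripts.
Lyz1: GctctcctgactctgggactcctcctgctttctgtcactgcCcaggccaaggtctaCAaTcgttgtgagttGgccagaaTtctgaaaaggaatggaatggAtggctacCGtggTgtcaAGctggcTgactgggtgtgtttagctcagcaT
Lyz2: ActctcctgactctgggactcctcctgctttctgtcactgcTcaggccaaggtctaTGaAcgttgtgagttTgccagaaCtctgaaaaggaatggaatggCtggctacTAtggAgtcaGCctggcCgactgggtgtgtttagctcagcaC

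Over the whole transcripts, 16.1% of the 50-base windows of Lyz1 and 15.4% of those of Lyz2 are shared with the other copy, and 2.06% and 1.97% of the 100-base windows. Most reads could therefore be told apart, and the sources used here do not say how the authors' counting treated the others.

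Lyz1 had 28.5 and 9.64 CPM in MYC-WT and 119.5 and 46.8 CPM in MYC-deficient libraries. Both MYC-deficient libraries were above both MYC-WT libraries, by 1.64 times at the least. The log2 fold change of 2.15 (SE 0.64) did not pass (adjusted p = 0.0712), but it did in edgeR's likelihood ratio test (0.00495) and without MYC-deficient replicate 2 (log2 fold change 2.66, adjusted p = 0.00685). Leaving out any other library, it ranged from 1.37 to 3.11 and did not pass.

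Lyz2 had 19.0 and 9.30 CPM in MYC-WT and 9.44 and 11.3 CPM in MYC-deficient libraries. The MYC-deficient libraries lay within the MYC-WT range, and the log2 fold change was -0.42 (SE 0.35, adjusted p = 0.430). This fitted change turned positive without MYC-WT replicate 1 (0.16, adjusted p = 0.729). Lyz2 is ordinarily an abundant transcript of macrophages, but here it was low in both groups. Per kb of exon it had 7.07 to 14.4 CPM, where 13 of 16 mature macrophage genes were above it in all 4 libraries, among them Cd68, a lysosomal protein, at 764 to 1233 CPM per kb. Lyz2 is the locus that carries the Cre in both groups. As the number of Cre alleles is not stated, an intact copy may also be present. What the insertion does to the Lyz2 counts was not tested.

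Set against each other within a library, the lysozymes gave Lyz1 the larger share in both MYC-deficient libraries. Lyz1 took 60.0% of the lysozyme counts in MYC-WT replicate 1 (95% exact Clopper-Pearson interval 57.5 to 62.4%) and 50.9% in replicate 2 (46.6 to 55.2%). In the MYC-deficient libraries it took 92.7% (91.9 to 93.4%) and 80.6% (78.6 to 82.5%). These intervals cover counting error only, and the difference in share between genotypes was not tested over the libraries. The shares rest on a low Lyz2 level in every library. Adding the counts of both copies before the fit gave a log2 fold change of 1.52 (adjusted p = 0.107), from 47.5, 18.9, 129.0 and 58.0 CPM.

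**Figure D2:**
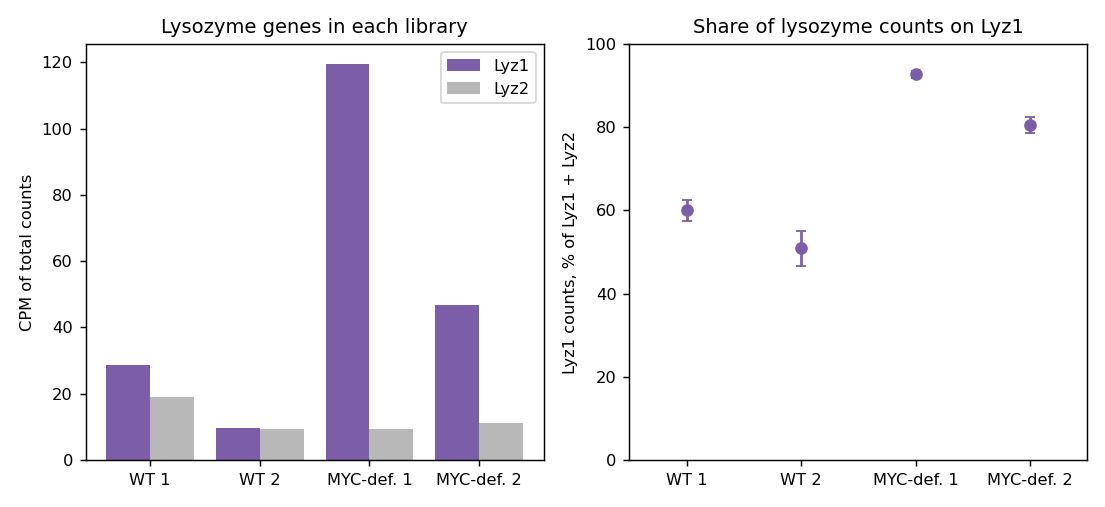
Left, Lyz1 and Lyz2 in CPM of total counts (y axis, from 0) in each library (x axis). Right, the share of the summed Lyz1 and Lyz2 counts on Lyz1 in percent, with 95% exact binomial intervals as bars. In MYC-WT libraries the share is 60.0% and 50.9%, in MYC-deficient libraries 92.7% and 80.6%, while Lyz2 stays between 9.30 and 19.0 CPM.

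To compare levels between markers, CPM were divided by each gene's exon length in kb. Lyz1 was the highest in both genotypes, with means of 15.1 CPM per kb in MYC-WT and 65.8 in MYC-deficient cells, followed by Chil3 (12.2 and 33.6) and Lyz2 (10.8 and 7.86). These means did not separate Lyz1, Chil3 and Lyz2 in MYC-WT, where each gene differed 2.05-fold or more between replicates. The other 5 markers were lower, from 0.244 CPM per kb (Fn1) to 1.13 (Plac8) in MYC-WT and from 0.618 (Vcan) to 3.18 (Plac8) in MYC-deficient cells. The gene that passed was thus the lowest of the 8 per length in MYC-WT. In bulk RNA, fewer cells of a type and less RNA per cell cannot be told apart.

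The markers did not follow 1 pattern over the libraries. In Ly6c2, Plac8, F13a1, Chil3 and Lyz1 the level was highest in MYC-deficient replicate 1, and replicate 1 was above replicate 2 in both genotypes. MYC-deficient replicate 1 was highest in 3474 of all 13436 genes tested, and that replicate order held in 39.9%. Between same-numbered libraries, MYC-deficient over MYC-WT (replicate 1, then 2) was 4.19 and 2.24 for Ly6c2 and 2.93 and 2.44 for Plac8. It was 2.27 and 3.09 for F13a1, 2.87 and 2.47 for Chil3, and 4.20 and 4.85 for Lyz1. For Fn1 it was 3.67 and 5.66, for Vcan 0.547 and 0.737, and for Lyz2 0.497 and 1.21. No label ties these libraries. Fn1 was highest in MYC-deficient replicate 2, Vcan in MYC-WT replicate 2 and Lyz2 in MYC-WT replicate 1. Summed over the 8 genes, the level was 104.4 and 54.3 CPM in MYC-WT and 268.6 and 126.8 CPM in MYC-deficient libraries.

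The number of markers called therefore depended on which MYC-deficient library stood for the genotype. Leaving out 1 of them sets a single replicate number against both MYC-WT replicates. For the 5 markers with replicate 1 above replicate 2 in both genotypes, these fits do not separate that order from genotype. Without MYC-deficient replicate 2, Ly6c2, Fn1, Plac8, F13a1, Chil3 and Lyz1 were called higher and Vcan lower, where 5.98% of all genes were called higher. Without MYC-deficient replicate 1, Fn1 alone was called, where 7.38% of all genes were called higher. Without MYC-WT replicate 1 it was Fn1 alone as well, and without MYC-WT replicate 2 none of the 8. Where a single library stood for a genotype, it was taken to vary as the other group did.

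**Figure D3:**
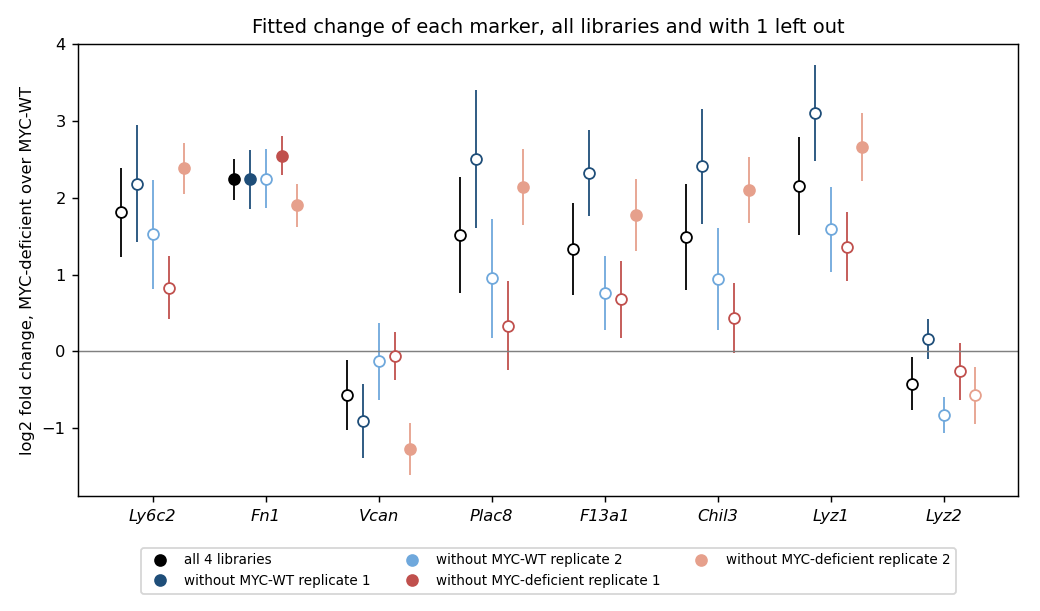
Fitted log2 fold change of each marker, MYC-deficient over MYC-WT (y axis, bars are standard errors), with all 4 libraries (black) and with each library left out (colours). Filled points passed the test and open points did not. Fn1 stays between 1.90 and 2.55, whereas Chil3 runs from 0.43 to 2.41 and Plac8 from 0.34 to 2.50.

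Genes of marrow progenitors and neutrophils, from which some of the 8 markers are also known, also tended to be highest in MYC-deficient replicate 1. All 10 progenitor genes (among them Mpo and Elane, enzymes of the first granules made in the marrow) had positive log2 fold changes, with a median of 1.74, and 0 of 10 passed. At an unadjusted p under 0.05 there were 4, and DESeq2, the likelihood ratio test and limma-trend called 3, 4 and 0. Without MYC-deficient replicate 2, 7 were called higher. Their summed level was 22.2 and 11.8 CPM in MYC-WT and 82.5 and 43.3 CPM in MYC-deficient libraries. MYC-deficient replicate 1 was highest in 8 of the 10, against 3474 of all 13436 genes tested. Mpo had 9.87, 3.53, 36.9 and 9.44 CPM in MYC-WT replicates 1 and 2 and MYC-deficient replicates 1 and 2. Cd34, a surface protein of stem and progenitor cells, was an exception, with 0.211, 1.34, 3.02 and 20.8 CPM, and so was Cebpe, a factor of late granulocyte precursors, with 1.20, 2.16, 1.82 and 2.11 CPM.

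Of 13 neutrophil genes tested 1 was higher and 0 were lower, with a median log2 fold change of 1.11. MYC-deficient replicate 1 was highest in 12 of the 13, against 3474 of all 13436 genes tested. Mmp8, the neutrophil collagenase, was the gene that passed, with 11.1, 6.28, 30.8 and 35.3 CPM (log2 fold change 1.96, adjusted p = 0.0143). Without MYC-deficient replicate 2, 10 were called higher. The summed level of all 14 neutrophil genes was 654 and 597 CPM in MYC-WT and 1173 and 753 CPM in MYC-deficient libraries. Most of it was Mmp9, which osteoclast precursors also express. Ly6g, which defines mature neutrophils, was at 0.112 CPM or less in every library. The part of marrow progenitors or immature granulocytes in the levels of the 8 markers was not tested.

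A further 15 genes of classical monocytes were taken as a comparison list, and 2 were higher and 0 lower (4 without MYC-deficient replicate 1 and 6 without MYC-deficient replicate 2). The larger change was that of Ccr2, the chemokine receptor with which these monocytes leave the marrow, at 17.0 and 11.7 CPM in MYC-WT and 146.8 and 105.9 CPM in MYC-deficient libraries. With a log2 fold change of 3.17 (SE 0.24, adjusted p = 0.00723), it passed with any library left out. Gda (guanine deaminase) had a log2 fold change of 1.03 (SE 0.20, adjusted p = 0.0267) and did not pass without MYC-WT replicate 2 (adjusted p = 0.0958). The median of the list was 0.49, lower than that of the 8 markers. Hp (haptoglobin) did not overlap between groups but did not pass (adjusted p = 0.143), with 0.823 to 4.69 CPM. Ifitm3, an antiviral membrane protein, had 515 and 543 CPM in MYC-WT and 489 and 167 CPM in MYC-deficient libraries.

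Of 8 transcription factors of monocytes, 2 were higher and 0 lower (0 higher without MYC-WT replicate 2). Cebpa, required for the granulocyte and monocyte lineage, had a log2 fold change of 0.64 (adjusted p = 0.0407), and Cebpb, needed for the survival of Ly6C-low monocytes, 0.76 (adjusted p = 0.0408). Cebpa did not pass without MYC-WT replicate 2 (0.169) or MYC-deficient replicate 2 (0.0683) or when scaled by total counts alone (0.0508), nor Cebpb without MYC-WT replicate 1 (0.104), MYC-WT replicate 2 (0.183) or MYC-deficient replicate 1 (0.0851). Spi1, which encodes PU.1, had 505 and 541 CPM in MYC-WT and 481 and 535 CPM in MYC-deficient libraries, with a log2 fold change of -0.02 (SE 0.13). Irf8 and Klf4, which direct precursors to monocytes, had log2 fold changes of 0.31 and 0.59 and did not pass (adjusted p = 0.187 and 0.120).

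Monocytes that have lost Ly6C, the nonclassical or patrolling kind, have markers of their own. Of 10 tested, 6 were higher and 0 lower, with a median log2 fold change of 1.26. Spn (CD43) had 69.1 and 64.9 CPM in MYC-WT and 377 and 253 CPM in MYC-deficient libraries (log2 fold change 2.26, adjusted p = 0.00768). Cx3cr1, the fractalkine receptor, had 61.2 and 96.2 against 254 and 377 CPM (log2 fold change 2.03, adjusted p = 0.0161). Spn and Cx3cr1 passed with any library left out, and without MYC-WT replicate 2 they were the 2 of the list that did. Treml4, Itgal, Adgre4 and Pou2f2 also passed, and 4 of the list were called without MYC-WT replicate 1. Nr4a1, the nuclear receptor on which Ly6C-low monocytes depend, had 2.49 to 3.23 CPM in the 4 libraries (log2 fold change -0.16, adjusted p = 0.687), and Ace had at most 0.0301 CPM. No test compared this list with the 8 markers.

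Of 16 markers of mature macrophages 3 were higher and 0 lower, with a median log2 fold change of 0.47. Cd68 rose by a log2 fold change of 0.64 (adjusted p = 0.0285) and Csf1r, the receptor of M-CSF, by 0.70 (adjusted p = 0.0311). Adgre1, the gene of F4/80, was the third that was higher. Cd68 and Csf1r failed without MYC-WT replicate 1 (0.151 and 0.114) or without MYC-WT replicate 2 (0.223 and 0.239), and Cd68 also failed without MYC-deficient replicate 2 (0.0666). As Adgre1 failed without either MYC-WT library too (0.0785 and 0.202), 0 of the 16 were called in those settings. The label of the cells, early osteoclasts, was checked with 10 osteoclast genes. Acp5 and Ctsk, the tartrate-resistant phosphatase and the collagen-cutting protease of osteoclasts, were at 229 and 458 and at 279 and 559 CPM in MYC-WT libraries, while Calcr, the calcitonin receptor of mature osteoclasts, had 0 counts in all 4. Of 9 tested, 1 was higher and 3 lower (6 lower without MYC-deficient replicate 2 and 1 without MYC-WT replicate 2), with a median of -0.98. Car2, the carbonic anhydrase that supplies acid, had a log2 fold change of -2.61 (adjusted p = 0.00736), and Nfatc1, the master regulator of the lineage, -0.98 (adjusted p = 0.0161; 0.0866 without MYC-WT replicate 2). Itgb3, the integrin beta 3 chain, rose by 1.47 (adjusted p = 0.0287; 0.129 without MYC-WT replicate 2).

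**Figure D4:**
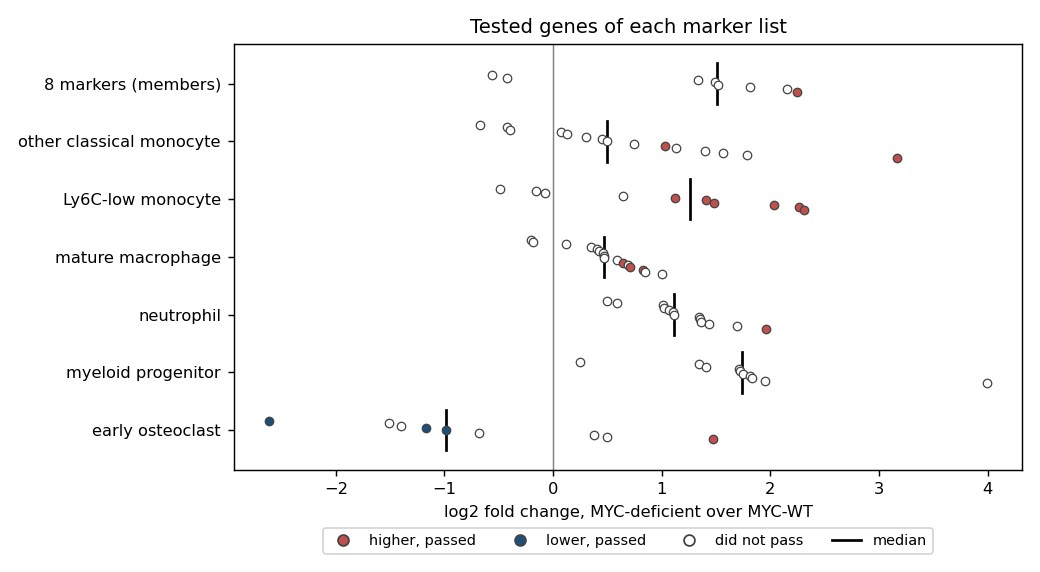
Fitted log2 fold changes (x axis, MYC-deficient over MYC-WT) of the tested genes of 7 marker lists (y axis), filled where a gene passed as higher (red) or lower (blue) and open where it did not, with a bar at each list's median. The 8 inflammatory monocyte markers have a median of 1.51 with 1 filled point, the Ly6C-low monocyte list 1.26 with 6, and the early osteoclast list -0.98.

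The proteins that bind or process Fn1 and Vcan were examined as a group, since they act on the products of both genes. Of 10 tested integrin, hyaluronan and matrix-processing genes, 2 were higher and 1 lower (0 and 0 without MYC-WT replicate 2). Itga4, a chain of a fibronectin receptor, had 307 and 258 CPM in MYC-WT and 161 and 160 CPM in MYC-deficient cells, a log2 fold change of -0.79 (adjusted p = 0.0161), with values above 0.05 without MYC-WT replicate 1 (0.0698) or replicate 2 (0.0656). Tgm2, a transglutaminase that crosslinks fibronectin, rose by 0.65 (adjusted p = 0.0203). It lost its call without MYC-WT replicate 1, MYC-WT replicate 2 or MYC-deficient replicate 2, with log2 fold changes of 0.62, 0.69 and 0.55. The other gene that was higher was Itgb3. Itga5, the alpha chain of the main fibronectin receptor, had 252 and 403 against 315 and 557 CPM and did not pass (adjusted p = 0.421). Itgb1, the integrin beta 1 chain, had 690 and 640 against 985 and 966 CPM. Its adjusted p was 0.0307, but its fitted change of 1.496-fold was under the fold threshold.

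Promoters were looked at because 5 of the markers varied alike over the libraries. RefSeq promoters (GRCm38.p6, 250 bases before to 50 after a start) were found for 7 of the 8 genes, 10 promoters in all, and Fn1 was not matched. The motifs were chosen after the promoters had been seen. The MYC E-box CACGTG was in 0 of the 10, against 7.15% of 32851 promoters. GAGGAAGT, a form of the PU.1 site, was in 3 of the 10 against 3.20%, at both annotated starts of Ly6c2, whose windows overlap, and at the second start of F13a1. The C/EBP motif TTGCNNAA (TTNNGCAA on the other strand) was in 2 of the 10 (Plac8 and Lyz1) against 10.8%, and TATAAA in 1 (Chil3) against 13.6%. Both strands were searched, and a match is a description of the letters, not of binding. The Ly6c2 promoter at chr15:75111922-75112221 (minus strand) is shown because it holds GAGGAAGT at 2 places, in capitals, the first beginning 108 bases before the start and the second at base 27 after it.
Ly6c2 promoter: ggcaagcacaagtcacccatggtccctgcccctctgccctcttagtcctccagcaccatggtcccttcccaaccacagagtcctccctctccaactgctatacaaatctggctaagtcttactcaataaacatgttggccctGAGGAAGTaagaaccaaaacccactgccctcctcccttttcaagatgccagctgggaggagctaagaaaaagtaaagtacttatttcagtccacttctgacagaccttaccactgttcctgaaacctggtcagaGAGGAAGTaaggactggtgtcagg

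The promoters of the adjacent lysozyme copies were 82.5% identical over 302 aligned columns, less than their coding sequences.

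Finally, the genes whose pattern over the 4 libraries lay nearest to the mean pattern of the 8 markers were listed, from 9146 tested genes whose mean log2 CPM was 3 or more. They were Dusp6, Tlr1, Man1a, Klf2 and Rnd3, with root mean square differences of 0.0362 to 0.113 in log2 units. Dusp6 had 72.5, 39.6, 145 and 87.0 CPM in MYC-WT replicates 1 and 2 and MYC-deficient replicates 1 and 2. Single markers lay farther from their own mean pattern, from 0.318 (F13a1) to 1.25 (Vcan). Since that mean pattern is higher in MYC-deficient libraries, the choice of these genes fixed their direction, and their fitted values are given as a description. Man1a, Klf2 and Rnd3 passed as higher (log2 fold changes of 1.19, 1.27 and 1.24, adjusted p = 0.0473, 0.0496 and 0.0389), and Dusp6 and Tlr1 did not (adjusted p = 0.0897 and 0.104).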

How the data were processed

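RNA-seq was run on 4 libraries, 2 per genotype. The authors deposited raw counts per gene (whole numbers) for 28443 genes, the same counts for 11109 genes they kept, and log2 CPM of those genes. Their processing notes list STAR 2.7.3a, bcl2fastq 1.8.4, edgeR and fastp, and the mm10 build. The sources used here do not give the counting tool, strand setting, annotation release or treatment of reads that map to several genes. Columns of the authors' own comparison, fold changes and p-values, were not used.

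The counts were tested with edgeR 4.0.16 (R 4.3.3): filterByExpr (min.count 10, min.total.count 15), TMM scaling, the quasi-likelihood test of genotype with 2 residual degrees of freedom, and Benjamini-Hochberg adjustment over 13436 genes. Standard errors are the log2 fold change over the square root of F. Thresholds are the study's. The p-values measure the spread between 2 libraries per group.

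The markers and the 15 comparison lists were chosen with earlier results of these data known. Named genes are the 8 markers, Myc, up to 2 called genes per direction of each list by smallest adjusted p, defining genes at or near 0, copies that can share reads, and the 5 genes nearest in pattern; other genes were named after their values were seen. Windows, coding sequences and exon lengths are from GENCODE M21, in which the 8 genes have the deposited positions, and promoters from RefSeq, read with Biopython 1.88. Alternatives were RLE scaling, total counts alone, no filter, DESeq2 1.42.0, the likelihood ratio test, limma-trend (limma 3.58.1) on the authors' log2 CPM, no fold threshold, the replicate number as a block, each library left out, and near-identical copies summed.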

Additional observations from a re-analysis of the deposited data

How the results depend on the processing

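Under RLE scaling, total counts alone, limma-trend and no fold threshold, 1 marker was higher and 0 were lower, as with the chosen settings. DESeq2 called 2 higher and the likelihood ratio test 3. With no filter 6 were higher, and 1385 of all genes; there the median prior degrees of freedom of the test went from 3.28 to infinite, so that a gene's own spread between replicates no longer entered, and the SE of Lyz1 fell from 0.64 to 0.16. With each library left out, the markers called higher ranged from 0 to 6 and lower from 0 to 1, and all genes called higher from 65 to 1011 and lower from 199 to 1281. The lowest counts came without MYC-WT replicate 2. The Lyz2 log2 fold change was 1.52 with the copies summed, which is then a value of both copies, and -0.83 to 0.16 with each library left out. With the replicate number as a block, 6 markers (Ly6c2, Fn1, Plac8, F13a1, Chil3 and Lyz1) were higher and 1 (Vcan) lower. In that fit 1400 of all 13436 genes were higher and 1774 lower. The replicate numbers are shared by 2 pairs that no label ties together. The deviations of same-numbered libraries from their group means correlated at r = 0.50 across 13436 genes, which are not independent. Precision is limited by 2 libraries per group: counts of 26 or more stood behind every marker value.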

Other observations

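Other cell types and states were read from the remaining lists. Of 9 tested dendritic cell genes 2 were higher and 0 lower. Ccl22, a chemokine of mature dendritic cells, had 0.421 and 0.515 CPM in MYC-WT and 2.18 and 3.59 CPM in MYC-deficient libraries (log2 fold change 2.64, adjusted p = 0.0160). Cd209a, a lectin of monocyte-derived dendritic cells, had at most 0.782 CPM (log2 fold change 3.51, adjusted p = 0.0155). Its counts were 3 and 1 for the control replicates, against 28 and 20 without MYC. Cd209a therefore reached the count filter through the MYC-deficient libraries alone, and the authors' own filter dropped it. Its call rests on very low control counts. Without MYC-deficient replicate 2, 4 of the list were called. Neither Ccl22 nor Cd209a passed without MYC-WT replicate 1 (0.0708 and 0.0573) or MYC-WT replicate 2 (0.0815 and 0.0950). Itgax, which encodes CD11c, had 24.2 and 65.5 CPM in MYC-WT and 121 and 290 CPM in MYC-deficient libraries without passing (adjusted p = 0.0624).

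Chil3 is also read as a gene of alternative activation, the state that interleukin 4 induces. Of 9 tested genes of that list 3 were higher and 0 lower. Egr2, a transcription factor of this state, had 7.40 and 10.1 CPM in MYC-WT and 23.0 and 27.5 CPM in MYC-deficient libraries (log2 fold change 1.55, adjusted p = 0.0136), and it passed with any library left out. Tgm2 and Irf4 were the others, and Irf4 (log2 fold change 1.69, adjusted p = 0.0306) did not pass without MYC-WT replicate 1 (0.0688), MYC-WT replicate 2 (0.152) or MYC-deficient replicate 1 (0.0504). Retnla, Chil4 and Ccl17, which interleukin 4 switches on strongly, had 0 counts in all 4 libraries, and Arg1 had at most 1.52 CPM.

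Lymphoid genes were near absent: Cd3d and Cd3e had 0 counts, and of the 11 listed only Cd4, which monocytes and macrophages can carry, was tested and did not pass (4.60, 2.20, 4.13 and 0.944 CPM). Of 5 tested platelet genes 0 passed (2 at an unadjusted p under 0.05, and 1, 1 and 0 in DESeq2, the likelihood ratio test and limma-trend), with Pf4 at 30.3 and 25.7 CPM in MYC-WT and 51.0 and 27.6 CPM in MYC-deficient libraries. Of 2 tested genes of eosinophils, basophils and mast cells 0 passed (2 at an unadjusted p under 0.05, and 1, 2 and 0 in DESeq2, the likelihood ratio test and limma-trend; 1 without MYC-deficient replicate 1 and 2 without MYC-deficient replicate 2), Prg2 (1.44, 1.10, 10.2 and 2.03 CPM) and Siglecf (0.271, 1.17, 1.79 and 8.02 CPM), with their highest values in different MYC-deficient libraries. Of the 12 stromal genes Dcn alone had enough counts over the 4 libraries and was lower, at 1.84 and 3.09 against 0.670 and 0.254 CPM (adjusted p = 0.0388; 0.0644 and 0.167 with MYC-WT replicate 1 or 2 left out). Col1a1 had 0 counts in 3 libraries and 2.74 CPM in MYC-deficient replicate 1. Col1a2 likewise had 0 counts in 3 libraries and 1.96 CPM in MYC-deficient replicate 1. A fit in which that library alone stands for its genotype admits such genes through it. Calls of the stromal and platelet lists in that fit are therefore not given.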
